A study of Mus musculus with 10 samples.

Results

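This section describes 10 mouse transcription factor genes that are known for their roles in memory and exhaustion of CD8 T cells: Tcf7, Lef1, Tox, Tox2, Bach2, Id2, Id3, Foxo1, Zeb2 and Bcl6. They were taken by name from a list and not by a threshold on their values, although earlier results of these data were known when the list was made, and are 10 of the 53465 genes in the count files. The study asked how acetate acts on CD8 T cells that are short of glucose. All libraries came from OT-I mice on the C57BL/6 strain, whose T cells carry 1 transgenic receptor for an ovalbumin peptide. Cells from spleens and peripheral lymph nodes were activated with that peptide and interleukin 2 in 25 mM glucose for 3 days. They were then moved to 1 mM glucose and replated daily with interleukin 2. The d5 groups had 24 h of restriction and the d9 groups 120 h, and these times together with the 3 days of activation do not add up to the day names, which the labels leave unexplained. The acetate groups received 5 mM sodium acetate for the last day. Every group was given PMA and ionomycin for the 4 h before RNA extraction. There were 2 libraries of d5, 2 of d5 with acetate, 3 of d9 and 3 of d9 with acetate. Cells kept in 25 mM glucose were not analysed here.

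Naive and memory CD8 T cells, and the stem-like cells that sustain a chronic response, depend on a group of transcription factors that restrain effector differentiation: TCF1 (gene Tcf7), LEF1, FOXO1, BACH2, BCL6 and ID3. ID2 and ZEB2 are known for the opposite side, the effector program, while TOX is required for the exhausted state that follows persistent stimulation and TOX2 is its close relative. ID2 and ID3 carry no DNA-binding domain and act by capturing E proteins, so they are inhibitors of transcription factors rather than factors that bind DNA.

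Libraries held 16588023 to 24659226 gene counts. Levels are given as CPM, gene counts scaled to the library total with TMM factors. The first principal component of log2 CPM separated d5 from d9 and held 66.2% of the variance. On the second, which held 11.4%, d9 replicate 1 and d9 acetate replicate 2 stood away from the remaining d9 libraries, and they are named here as the libraries that lay apart. Ribosomal protein genes took 13.5% and 13.3% of counts in those libraries and 9.80% to 11.0% in the other d9 libraries. The labels do not say whether replicates came from separate mice or cultures, so a p-value here measures only how these libraries spread, which may be technical. The 7 CD8 T cell markers were all detected. They summed to 2102 to 2312 CPM at d5 and 2494 to 2577 CPM at d5 with acetate. At d9 the sums were 2827 to 2934 CPM without and 2629 to 3126 CPM with acetate. Cd3d, Cd3g, Cd8a and Cd8b1 passed as higher at d9 without acetate, and Cd8b1 also with acetate. Cd8a passed as higher with acetate at d5, and Cd3e, Trac and Lck passed in none of these comparisons. The lists of markers of other cells were partly present. The 4 CD4 T cell markers summed to 117 to 169 CPM, mostly from Zbtb7b (106 to 163 CPM), with Cd40lg up to 11.3 and Cd4 up to 1.70 CPM. Of the monocyte markers Cd68 reached 11.8 and Lyz2 0.897 CPM, and of the neutrophil markers Ly6g reached 1.25 CPM and passed as higher at d9 in both states. Clec9a, S100a8, S100a9 and Hba-a1 were at 0 in every library.

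Of the 10 genes, 9 passed the filter on low counts and were tested among 13182 genes. Tox2 did not pass. Its counts were 1 and 0 at d5, 0 and 0 at d5 with acetate, 0, 3 and 3 at d9, and 2, 0 and 1 at d9 with acetate. Tox2 was thus at 0 in 5 libraries and its 10 counts do not allow a comparison of groups. A count of 0 allows a level of up to 3 counts, which is 0.134 to 0.175 CPM in the 5 libraries at 0, for counting error only.

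**Figure D1:**
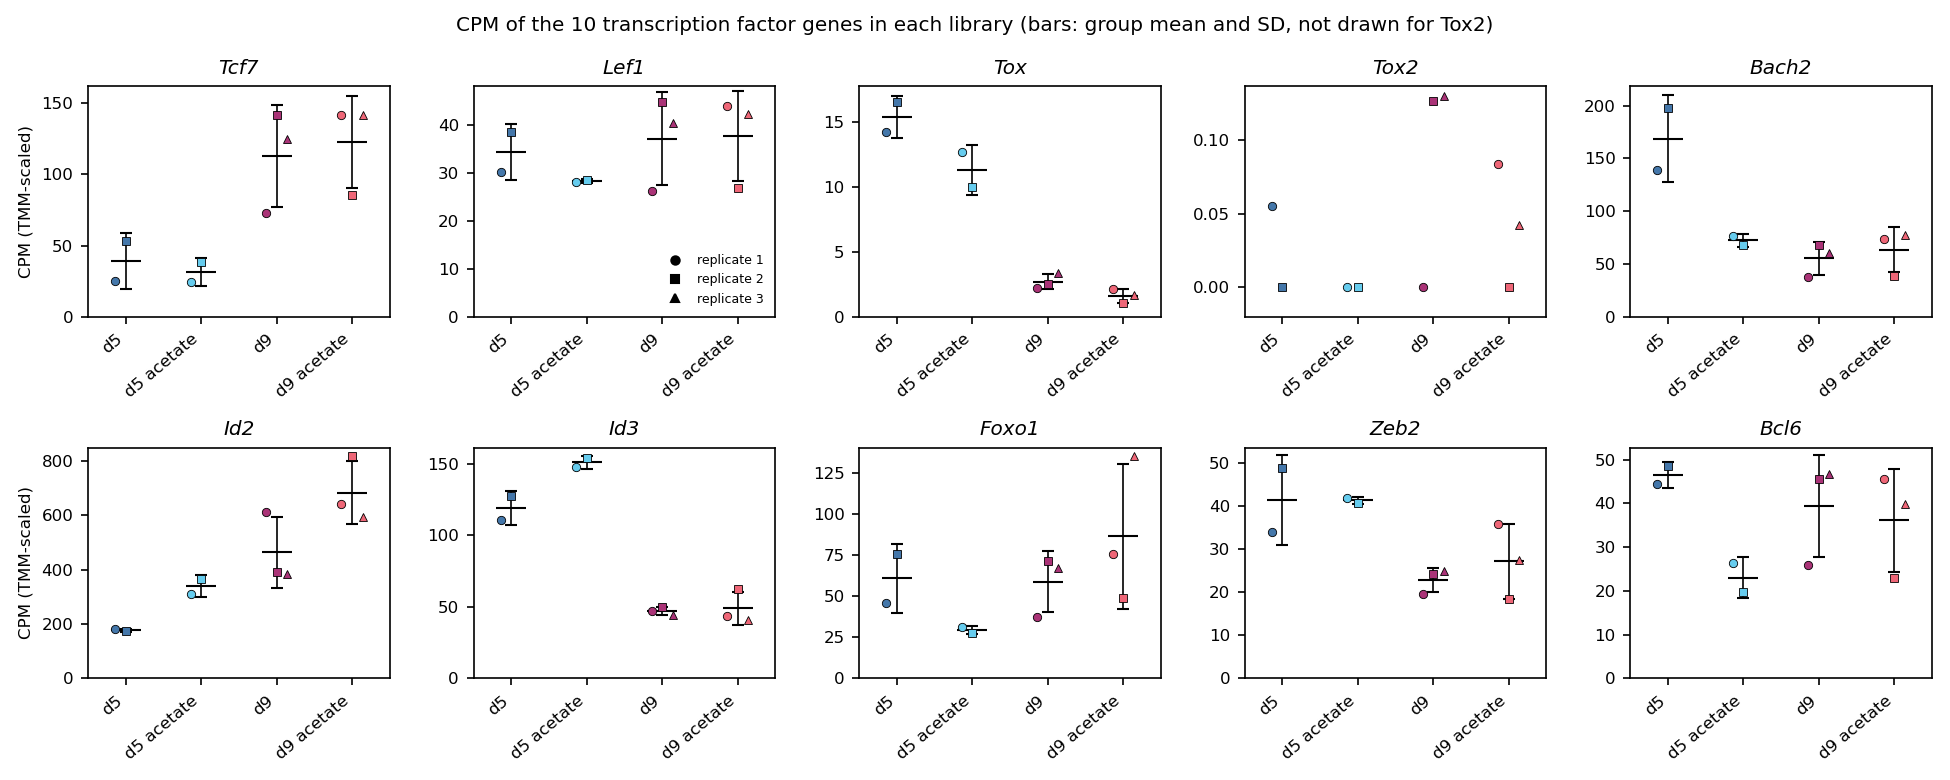
Level of each of the 10 genes in CPM (linear y axis, scaled per gene) in the 4 groups; points are libraries, with marker shapes for the replicates, and bars give the group mean and SD, which are not drawn for Tox2. Tcf7 and Id2 lie higher at d9, Tox and Id3 lie lower at d9, and Bach2 is highest in the d5 libraries without acetate. The difference of Bach2 with acetate at d5 did not pass in the edgeR test (adjusted p = 0.103).

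Levels between genes were compared as CPM per kilobase of merged exons. Merged exons join those of all annotated transcripts, so the expressed transcript may be shorter and the order depends on this length. Zeb2 has the most, with 19.9 kb. In CPM at d5 without acetate Zeb2 stood at 41.5, Lef1 at 34.4 and Tox at 15.4. At d5 without acetate the inhibitors Id2 and Id3 stood at the top, with 72.5 ± 2.58 and 66.4 ± 6.56 CPM per kb (SD, n = 2), and their ranges overlapped. Bach2 at 17.0 ± 4.16 and Tcf7 at 14.9 ± 7.53 CPM per kb followed, again with overlapping ranges. Foxo1 at 7.01 and Bcl6 at 6.94 CPM per kb could not be ordered, Lef1 stood at 3.92, and Zeb2 at 2.08 and Tox at 2.02 overlapped at the bottom of the tested genes.

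At d5 with acetate Id2 stood at 139 ± 16.0 and Id3 at 84.3 ± 2.55 CPM per kb (n = 2), above Tcf7 at 12.0 and Bach2 at 7.28. Bcl6, Foxo1 and Lef1 lay between 3.23 and 3.44 CPM per kb with overlapping ranges, above Zeb2 at 2.07 and Tox at 1.49. At d9 Id2 stood at 190.1 ± 53.3 CPM per kb (n = 3). Tcf7 at 43.0 ± 13.6 and Id3 at 26.2 ± 1.64 CPM per kb came next and overlapped. Bach2 had moved to 5.57 CPM per kb, within a run of overlapping genes from Foxo1 at 6.77 through Bcl6 at 5.88 to Lef1 at 4.24. Tox was lowest of the tested genes, with 0.356 ± 0.0755 CPM per kb, under Zeb2 at 1.15.

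With acetate at d9 the order had the same ends. Id2 stood at 280.3 ± 48.2 CPM per kb (n = 3), Tcf7 at 46.8 ± 12.3 and Id3 at 27.3 ± 6.52, and the last pair overlapped. Foxo1 at 9.97, Bach2 at 6.38, Bcl6 at 5.40 and Lef1 at 4.30 CPM per kb formed an overlapping run, and Tox was lowest of the tested genes at 0.211 ± 0.0695.

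**Figure D2:**
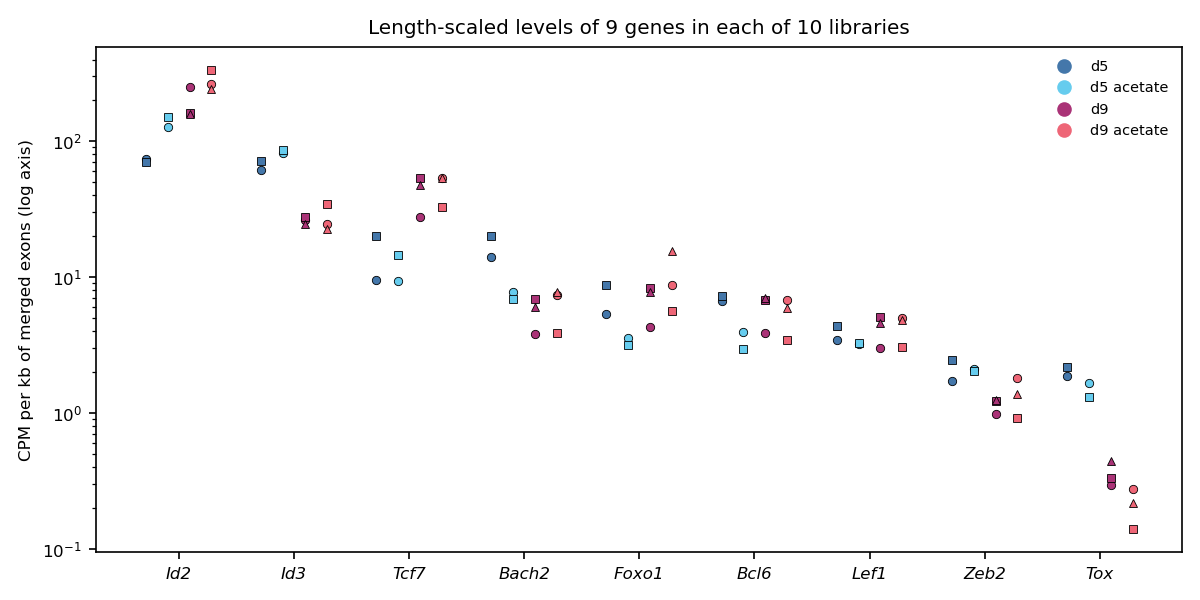
CPM per kilobase of merged exons (log10 y axis) for the 9 tested genes, with 1 point per library, colours for the 4 groups and marker shapes for the replicates. Group means of Id2 run from 72.5 to 280.3 CPM per kb, and Tox is lowest, with a mean of 0.211 CPM per kb at d9 with acetate.

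The longest step in the design is from 24 h to 120 h of glucose restriction, and it was compared without and with acetate. The d9 cells had also spent longer in culture, with more daily replating. No unrestricted cells of the same age were compared, so restriction and time in culture cannot be separated in these differences between days. The part of restriction alone was not tested. In bulk RNA, fewer cells of a type and less RNA per cell cannot be told apart. Without acetate, Tcf7 and Id2 rose between d5 and d9, and Tox, Bach2, Id3 and Zeb2 fell. With acetate, Tcf7, Id2 and Foxo1 rose and Tox and Id3 fell. Tests were edgeR quasi-likelihood tests with Benjamini-Hochberg adjustment over all 13182 genes, at a threshold of 0.05, and fold changes are log2 values with their SE.

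Tcf7 (ENSMUSG00000000782) lies on chromosome 11 at 52252371 to 52283014 of GRCm38 and encodes TCF1, the factor that marks naive, memory and stem-like CD8 T cells. Its levels were 25.2 and 53.1 CPM at d5, 24.5 and 38.4 CPM at d5 with acetate, 72.8, 141 and 124.5 CPM at d9, and 141, 85.5 and 142 CPM at d9 with acetate. All 6 d9 libraries were above all 4 d5 libraries, and the lowest d9 value in each state was that of the library that lay apart. Tcf7 rose from a mean of 39.1 ± 19.8 to 113 ± 35.8 CPM (SD, n = 2 and 3) without acetate, a log2 fold change of 1.53 ± 0.39 (adjusted p = 0.0117). With acetate it rose from 31.4 ± 9.83 to 123 ± 32.3 CPM, a log2 fold change of 1.97 ± 0.40 (adjusted p = 0.00331). The call without acetate was lost when d5 replicate 1 was left out (log2 fold change 1.09, adjusted p = 0.101) and with no filter on low counts (1.58, adjusted p = 0.0669). Over the alternatives its adjusted p ranged from 1.06e-04 to 0.101.

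Lef1 encodes the relative of TCF1 that binds the same DNA motif, and it passed between days in neither state. Its levels were 30.3 and 38.6 CPM at d5, 28.1 and 28.7 CPM at d5 with acetate, 26.4, 44.9 and 40.5 CPM at d9, and 44.0, 26.9 and 42.4 CPM at d9 with acetate. The d5 and d9 libraries overlapped in both states, and the lowest d9 value of each state was again that of the library that lay apart. The log2 fold change between days was 0.11 ± 0.25 without acetate (95% interval -0.44 to 0.67, adjusted p = 0.750). With acetate it was 0.41 ± 0.25 (95% interval -0.15 to 0.97, adjusted p = 0.211), and it passed when both libraries that lay apart were left out (0.60, adjusted p = 0.00285). It also passed when only d9 acetate replicate 2 was left out (0.64, adjusted p = 0.0445). Lef1 (chromosome 3, 131110471 to 131224356) spans the narrowest range of the tested genes, with the highest library at 1.70 times the lowest.

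The ratio of both genes within a library, on the scale of CPM per kb, leaves out differences that they share. Tcf7 was 2.78 and 4.61 times Lef1 at d5 and 2.92 and 4.48 times at d5 with acetate. It was 9.24, 10.6 and 10.3 times Lef1 at d9 and 10.8, 10.6 and 11.2 times at d9 with acetate. The d9 libraries that lay apart, with ratios of 9.24 and 10.6, stood beside the other d9 libraries on this measure. No test was made of these ratios, since they were added as a description.

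Of 8 partners and targets of TCF1 and LEF1, all tested, 3 fell and none rose without acetate (median log2 fold change -0.37, against -0.01 over all genes). Of all genes tested, 37.1% passed there, 15.9% higher and 21.2% lower, and with acetate 41.6% passed, 18.5% higher and 23.1% lower, so that 3 of 8 is near the background. Tle1, a Groucho corepressor, fell by 1.94 ± 0.29 on the log2 scale, and Axin2, a target of the canonical Wnt pathway, fell by 1.08 ± 0.34. Tle4, another Groucho corepressor, fell by 0.75 ± 0.25. With acetate 2 fell and 2 rose (median -0.41, against -0.01). Tle1 fell by 2.00 ± 0.30 and Tle4 by 0.73 ± 0.25, while Aes (also named Tle5), a shortened member of the Groucho family, rose by 0.57 ± 0.10 and Tle3 rose by 1.05 ± 0.30.

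Id2 (chromosome 12, 25093799 to 25097140), the inhibitor of E proteins that effector cells use, had the highest mean level per length in every group. Its levels were 181 and 172 CPM at d5, 312 and 367 CPM at d5 with acetate, 613, 392 and 384.5 CPM at d9, and 639.7, 817 and 594 CPM at d9 with acetate. The groups did not overlap between days in either state, and d9 replicate 1 and d9 acetate replicate 2 were the highest of their groups. Without acetate Id2 rose from 177 ± 6.30 to 463 ± 130.0 CPM (n = 2 and 3), a log2 fold change of 1.39 ± 0.22 (adjusted p = 7.91e-04). With acetate it rose from 339 ± 39.0 to 683 ± 118 CPM, a log2 fold change of 1.01 ± 0.22 (adjusted p = 0.00408).

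Id3 (chromosome 4, 136143497 to 136145755), the inhibitor of E proteins associated with naive and memory precursor cells, went the other way. Its levels were 111 and 127 CPM at d5, 148 and 154 CPM at d5 with acetate, 47.0, 49.9 and 44.0 CPM at d9, and 43.9, 62.2 and 40.5 CPM at d9 with acetate. All d9 libraries were below all d5 libraries. Id3 fell by 1.34 ± 0.17 on the log2 scale without acetate (adjusted p = 1.87e-04), from a mean of 119 ± 11.7 to 47.0 ± 2.94 CPM. With acetate it fell by 1.63 ± 0.17 (adjusted p = 5.93e-05), from 151 ± 4.57 to 48.9 ± 11.7 CPM.

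On the scale of CPM per kb, Id2 was 1.20 and 0.994 times Id3 at d5 and 1.55 and 1.75 times at d5 with acetate. It was 9.58, 5.78 and 6.42 times Id3 at d9, and 10.7, 9.64 and 10.8 times at d9 with acetate. The genes were thus near parity in the d5 libraries without acetate, and Id2 led in all 6 d9 libraries. Of the 3 E proteins that both inhibitors bind, Tcf3 fell in both states, by 0.87 ± 0.14 (77.9 ± 2.59 to 42.5 ± 3.10 CPM) and by 1.02 ± 0.14, while Tcf4 and Tcf12 passed in neither, against 21.2% and 23.1% of all genes lower. The median over the 3 was -0.31 without and -0.30 with acetate, against -0.01 over all genes in each.

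**Figure D3:**
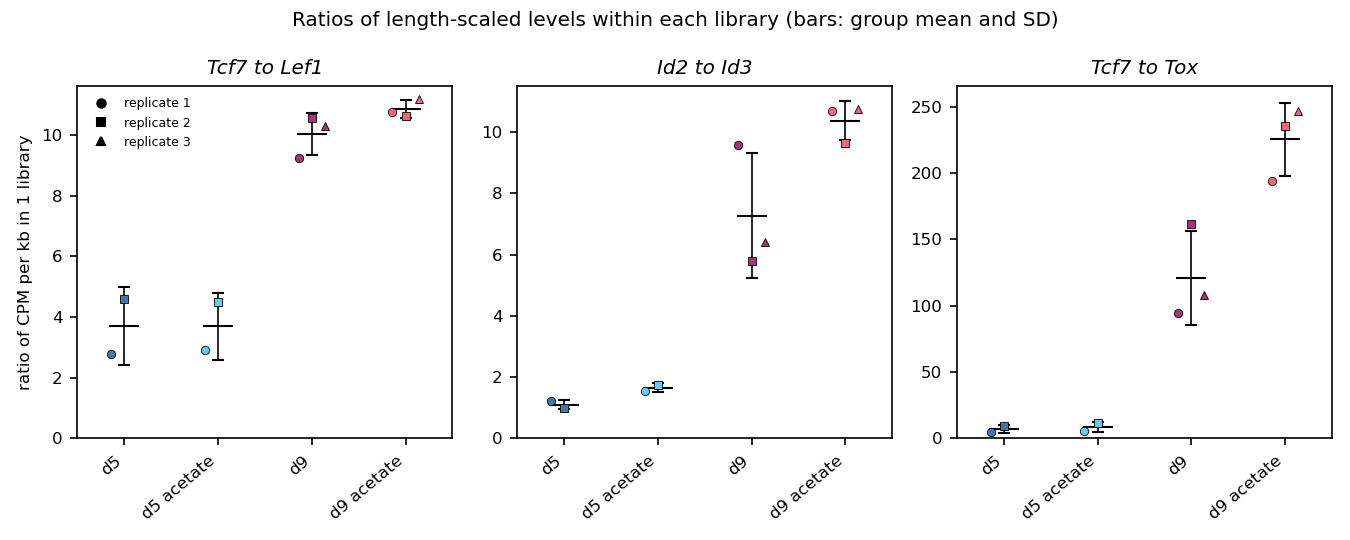
Ratios within each library of Tcf7 to Lef1, Id2 to Id3 and Tcf7 to Tox on the scale of CPM per kilobase of merged exons (linear y axis from 0), with 1 point per library in the 4 groups and bars for the group mean and SD. The Tcf7 to Lef1 ratio is 2.78 to 4.61 in the d5 libraries and 9.24 to 11.2 in the d9 libraries, and every ratio of Id2 to Id3 at d9 is above those at d5.

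Tox (chromosome 4, 6686353 to 6991557) encodes the HMG-box factor that programs exhausted CD8 T cells. Its levels were 14.2 and 16.5 CPM at d5, 12.7 and 9.94 CPM at d5 with acetate, 2.24, 2.54 and 3.35 CPM at d9, and 2.11, 1.05 and 1.66 CPM at d9 with acetate. The highest d9 library, at 3.35 CPM, was below the lowest d5 library, at 9.94 CPM. The d9 values rest on 23 to 77 counts per library. Tox fell by 2.50 ± 0.25 on the log2 scale without acetate (15.4 ± 1.58 to 2.71 ± 0.575 CPM, n = 2 and 3, adjusted p = 4.78e-05). With acetate it fell by 2.80 ± 0.26 (11.3 ± 1.93 to 1.61 ± 0.529 CPM, adjusted p = 3.43e-05). In absolute size these were the largest log2 fold changes between days among the 9 tested genes in both states. The ratio of Tcf7 to Tox in CPM per kb was 5.12 and 9.34 at d5, 5.60 and 11.2 at d5 with acetate, 94.2 to 161 at d9 and 194 to 247 at d9 with acetate.

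Of 16 genes associated with exhausted CD8 T cells, all tested, 3 rose and 3 fell between days without acetate (median log2 fold change 0.11, against -0.01 over all genes), a share near the 37.1% of all genes. Entpd1, the ectonucleotidase CD39, rose by 3.19 ± 0.20 and Cd244a, which encodes the receptor 2B4, rose by 1.25 ± 0.23. The inhibitory receptor genes Pdcd1 and Tigit fell by 1.36 ± 0.20 and 1.11 ± 0.18. With acetate 4 rose and 2 fell (median 0.35, against -0.01), beside 41.6% of all genes. Entpd1 rose by 2.39 ± 0.18 and the early response genes Nr4a1 and Nr4a3 by 3.08 ± 0.63 and 1.71 ± 0.45, while Pdcd1 fell by 0.92 ± 0.20.

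Bach2 (chromosome 4, 32238804 to 32586108) encodes a repressor that limits effector differentiation by competing with AP-1 factors. Its levels were 139 and 198 CPM at d5, 76.7 and 68.0 CPM at d5 with acetate, 37.6, 68.1 and 60.2 CPM at d9, and 73.8, 38.7 and 77.6 CPM at d9 with acetate. The d5 libraries without acetate stood above the other 8 libraries. Without acetate Bach2 fell by 1.61 ± 0.30 on the log2 scale between days (169 ± 41.4 to 55.3 ± 15.8 CPM, adjusted p = 0.00239). With acetate the d5 and d9 libraries overlapped and the log2 fold change was -0.19 ± 0.31 (95% interval -0.87 to 0.49, adjusted p = 0.644). The change between days is not shown to differ with acetate, since the test of that difference gave an adjusted p of 0.439.

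Bcl6 (chromosome 16, 23965052 to 23988852) encodes a repressor that favours memory over effector differentiation. Its levels were 44.4 and 48.6 CPM at d5, 26.3 and 19.8 CPM at d5 with acetate, 25.8, 45.6 and 46.7 CPM at d9, and 45.6, 23.0 and 39.8 CPM at d9 with acetate. The d9 libraries that lay apart, at 25.8 and 23.0 CPM, were within the range of d5 with acetate, and the groups overlapped between days in both states. The log2 fold change was -0.24 ± 0.30 without acetate (95% interval -0.90 to 0.42, adjusted p = 0.563) and 0.65 ± 0.31 with acetate (95% interval -0.03 to 1.33, adjusted p = 0.113). The latter passed without both libraries that lay apart (0.89, adjusted p = 3.03e-04) and with a trend with exon length removed (0.71, adjusted p = 0.0412). It also passed without d9 replicate 1 (0.69, adjusted p = 0.0426) and without d9 acetate replicate 2 (0.93, adjusted p = 0.0170), and its adjusted p over the alternatives reached 0.419.

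The list of BCL6 partners and its antagonist held 6 genes, all tested. Prdm1, which encodes BLIMP1, the repressor that opposes BCL6, rose from 5.93 ± 0.200 to 33.3 ± 4.69 CPM without acetate, a log2 fold change of 2.49 ± 0.34. It was the 1 gene of the list that passed there, and none fell (median 0.28, against -0.01 over all genes), beside 15.9% of all genes higher. With acetate 3 rose and none fell (median 1.29, against -0.01), beside 18.5% of all genes higher. These were Prdm1, by 2.33 ± 0.33 from 10.3 ± 2.92 to 51.9 ± 21.7 CPM, and the corepressor genes Bcorl1 and Bcor, by 2.11 ± 0.51 and 1.04 ± 0.33.

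Foxo1 (chromosome 3, 52268336 to 52353221) encodes a forkhead factor that keeps Tcf7, Il7r and homing genes on and is held in the cytoplasm by AKT. Its levels were 46.0 and 75.5 CPM at d5, 30.9 and 27.6 CPM at d5 with acetate, 37.4, 71.6 and 67.1 CPM at d9, and 75.5, 48.9 and 135 CPM at d9 with acetate. Foxo1 was lowest in the d5 acetate libraries, and d9 acetate replicate 3 was the highest of all 10. Between days without acetate the libraries overlapped, with a log2 fold change of -0.05 ± 0.40 (95% interval -0.93 to 0.84, adjusted p = 0.937). With acetate Foxo1 rose by 1.56 ± 0.42 (29.2 ± 2.35 to 86.4 ± 44.0 CPM, adjusted p = 0.0141) and the groups did not overlap. That call was lost without d5 acetate replicate 1 (1.66, adjusted p = 0.0763), without d5 acetate replicate 2 (1.49, adjusted p = 0.0944) and with no filter on low counts (1.60, adjusted p = 0.0774). Its adjusted p over the alternatives ranged from 1.99e-04 to 0.0944.

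Zeb2 (chromosome 2, 44983632 to 45117395) encodes a zinc finger repressor that acts with T-bet in terminal effector cells. Its levels were 34.0 and 48.9 CPM at d5, 41.9 and 40.8 CPM at d5 with acetate, 19.6, 24.2 and 24.9 CPM at d9, and 35.9, 18.4 and 27.5 CPM at d9 with acetate. The d9 libraries were below the d5 libraries within each state. Zeb2 fell by 0.86 ± 0.25 on the log2 scale without acetate (41.5 ± 10.5 to 22.9 ± 2.86 CPM, adjusted p = 0.0193). With acetate the log2 fold change was -0.60 ± 0.25 (95% interval -1.14 to -0.06, adjusted p = 0.0708). The call without acetate was lost without d5 replicate 2 (-0.57, adjusted p = 0.212), without d9 replicate 1 (-0.74, adjusted p = 0.0525) and with the length trend removed (-0.44, adjusted p = 0.0533). With acetate Zeb2 passed with no filter (-0.56, adjusted p = 0.0414), with the length trend removed (-0.44, adjusted p = 0.0480) and without d9 acetate replicate 1 (-0.85, adjusted p = 0.0184).

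Exons of 6 of the tested genes overlap those of other genes in GENCODE M21. On the opposite strand these are Gm43352 for Lef1 (1208 bp), Gm11802 for Tox (260 bp), Bach2os for Bach2 (537 bp), Gm20402 for Foxo1 (674 bp), Zeb2os for Zeb2 (653 bp) and Gm37419 for Bcl6 (21 bp). Zeb2 also shares a few bases with Gm27761 and Mir5129. Libraries were stranded, but whether counting used strand is not stated in the labels or notes, and reads of such pairs cannot be told apart. Tcf7, Tox2, Id2 and Id3 overlap no other exon.

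In all, 6 of the 9 tested genes passed between days without acetate, 2 higher and 4 lower. Over all genes tested in that comparison 37.1% passed, 15.9% higher and 21.2% lower. With the trend with exon length removed, 2873 of the 5383 genes that passed were higher, in place of 2096 of 4895. The groups did not overlap for those 6 genes, against 63.1% of all genes, so that this share was close to the background. The median log2 fold change of the 9 genes was -0.24, against -0.01 over all genes. With acetate 5 of 9 passed, 3 higher and 2 lower, against 41.6% over all genes (18.5% higher and 23.1% lower). The groups did not overlap for 6 of 9, against 62.5% of all genes, and the median was 0.41, against -0.01.

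Markers of other cells moved with the day as well. The 5 dendritic cell markers summed to 19.4 to 25.6 CPM at d5 and 67.8 to 71.8 CPM at d9 without acetate, mostly from Zbtb46, with Clec9a at 0. With acetate these sums were 31.6 to 32.3 CPM at d5 and 71.1 to 99.6 CPM at d9. The 4 NK cell markers summed to 97.8 to 106 CPM at d5 and 18.3 to 32.2 CPM at d9 without acetate. With acetate the NK sums were 82.2 to 89.7 CPM at d5 and 35.3 to 50.1 CPM at d9. The NK markers did not move together. Klrc1, up to 104 CPM, fell between days in both states, while Klrb1c, from 1.23 to 25.9 CPM, rose in both. The part of such cells in the results for the 9 genes was not tested.

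**Figure D4:**
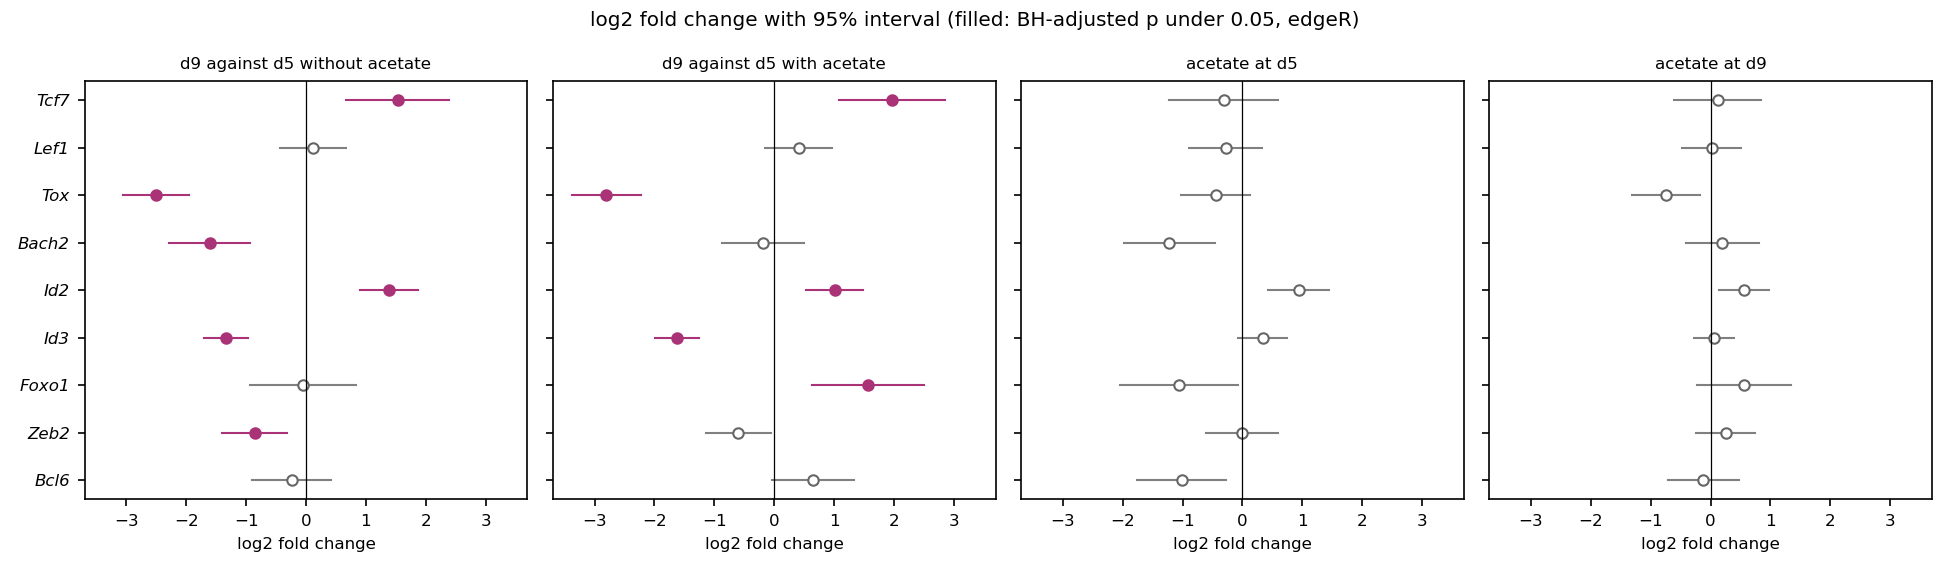
Log2 fold changes of the 9 tested genes with 95% intervals in the 4 comparisons between groups (x axis, log2), with filled points for an adjusted p under 0.05. The filled points are the 6 genes between days without acetate and the 5 with acetate, and both acetate comparisons hold open points alone.

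Acetate was compared with no acetate at each day. At d5 none of the 9 genes passed in the edgeR quasi-likelihood test, against 1.52% of all genes (0.660% higher and 0.865% lower). Bach2, Bcl6 and Foxo1 had lower means with acetate and Id2 a higher one, and these 4 had an unadjusted p under 0.05, as had 2612 of the 13182 genes. DESeq2 passed 3 of them, Id2, Bach2 and Bcl6, among 786 of all genes, and limma-voom none, among 166. The groups did not overlap for 7 of the 9 genes, against 59.0% of all genes, and the median log2 fold change was -0.31, against 0.01.

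The value of Id2 at d5 was 177 ± 6.30 CPM without and 339 ± 39.0 CPM with acetate (n = 2 each), a log2 difference of 0.94 ± 0.23 (adjusted p = 0.0726). For Bach2 the means were 169 ± 41.4 and 72.3 ± 6.13 CPM, a log2 difference of -1.22 ± 0.34 (adjusted p = 0.103). Bcl6 had means of 46.5 ± 3.00 and 23.0 ± 4.60 CPM, a log2 difference of -1.01 ± 0.34 (adjusted p = 0.146). In each of these genes the libraries with acetate lay wholly to one side of those without. All 3 passed when both d9 libraries that lay apart were left out, which leaves the d5 libraries as they are and changes the spread that the groups share. Over all genes the count at d5 then went from 201 to 2162. Over the alternatives the adjusted p ranged from 0.00114 to 0.356 for Id2, from 0.00154 to 0.442 for Bach2 and from 0.00156 to 0.511 for Bcl6.

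The means of Foxo1 at d5 were 60.7 ± 20.8 and 29.2 ± 2.35 CPM, with a log2 difference of -1.06 ± 0.45 (adjusted p = 0.228) and no overlap. Tcf7 and Zeb2 overlapped, with log2 differences of -0.31 ± 0.41 (95% interval -1.23 to 0.60) and -0.00 ± 0.27 (95% interval -0.60 to 0.59). Zeb2 changed sign with other scalings, but its means were 41.5 and 41.3 CPM. Id3 had a log2 difference of 0.34 ± 0.19 (95% interval -0.07 to 0.75), Lef1 of -0.28 ± 0.28 (-0.89 to 0.33) and Tox of -0.44 ± 0.26 (-1.02 to 0.13), each without overlap.

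Other cells' markers differed at d5 too. The 6 B cell markers summed to 1.16 to 1.69 CPM without and 3.25 to 5.15 CPM with acetate, mostly Cd79b, while Ms4a1 had at most 3 counts. The 5 monocyte and macrophage markers summed to 9.43 to 12.4 CPM without and 4.68 to 6.45 CPM with acetate, mostly Cd68, which passed as lower. They did not move together. Lyz2, Adgre1 and Csf1r reached at most 0.897, 0.504 and 0.448 CPM, and these highest values were in d5 acetate replicate 1. The 5 dendritic cell markers summed to 19.4 to 25.6 CPM without and 31.6 to 32.3 CPM with acetate. For the 4 NK cell markers the sums were 97.8 to 106 CPM without and 82.2 to 89.7 CPM with acetate. Of these 4, Klrb1c passed as higher with acetate. On the second principal component the d5 libraries without acetate lay at 18.2 and 29.2 and those with acetate at -16.4 and -32.9, on the side of the d9 libraries that lay apart. Ribosomal protein genes took 10.3% and 9.30% of counts in the d5 libraries without and 10.3% and 12.2% in those with acetate. The part of these cells and of this component in the values at d5 was not tested.

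Acetate at d5 and the difference between days without acetate share the d5 libraries without acetate, so they are not independent, and no member passed in the first. The log2 values of both, in that order, were 0.94 and 1.39 for Id2, -1.22 and -1.61 for Bach2, -1.01 and -0.24 for Bcl6, and -1.06 and -0.05 for Foxo1. They were 0.34 and -1.34 for Id3 and -0.31 and 1.53 for Tcf7. Tox had -0.44 and -2.50, Zeb2 -0.0039 and -0.86, and Lef1 -0.28 and 0.11.

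At d9 none of the 9 genes passed for acetate in the edgeR test, in DESeq2 or in limma-voom, against 0.0303% of all genes in edgeR. Id2 and Tox had an unadjusted p under 0.05, as had 2026 of the 13182 genes. Id2 stood at 463 ± 130.0 CPM without and 683 ± 118 CPM with acetate (n = 3 each), with overlap, and a log2 difference of 0.56 ± 0.19 (95% interval 0.15 to 0.98, adjusted p = 0.210). Without both libraries that lay apart Id2 passed (0.69, adjusted p = 0.0278), among 213 genes in place of 4, and its adjusted p over the alternatives reached 0.514. Each of the remaining Id2 values with acetate, 639.7 and 594 CPM, was above the remaining values without, 392 and 384.5 CPM.

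Tox was the 1 gene of the 9 whose d9 groups did not overlap, against 18.7% of all genes. The nearest libraries, d9 replicate 1 and d9 acetate replicate 1, both held 50 counts (2.24 and 2.11 CPM). Only the library scaling set them apart. Tox had 2.71 ± 0.575 CPM without and 1.61 ± 0.529 CPM with acetate, a log2 difference of -0.75 ± 0.26 (95% interval -1.32 to -0.17, adjusted p = 0.220). Tcf7 had a log2 difference of 0.12 ± 0.33 (95% interval -0.61 to 0.85), Lef1 of 0.02 ± 0.22 (-0.47 to 0.51) and Id3 of 0.06 ± 0.15 (-0.28 to 0.40). Foxo1 had 0.56 ± 0.36 (-0.23 to 1.35), Zeb2 0.25 ± 0.22 (-0.24 to 0.74), Bach2 0.20 ± 0.28 (-0.42 to 0.81) and Bcl6 -0.12 ± 0.27 (-0.72 to 0.47). With 3 libraries a group, these intervals are the sizes of difference that the data leave possible. The median of the 9 genes was 0.12, against 0.01 over all genes.

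The difference of the acetate effects, d9 minus d5, was tested as 1 contrast. None of the 9 genes passed in edgeR, DESeq2 or limma-voom, against 0% of all genes in edgeR. At an unadjusted p under 0.05 there were 2 of the 9 in edgeR and 1015 of all genes. Bach2 had a difference of 1.42 ± 0.44 on the log2 scale (95% interval 0.44 to 2.39, adjusted p = 0.439), from effects of -1.22 at d5 and 0.20 at d9. Foxo1 had 1.61 ± 0.57 (95% interval 0.35 to 2.88, adjusted p = 0.526), from -1.06 and 0.56. Bcl6 had 0.89 ± 0.43 (95% interval -0.05 to 1.84, adjusted p = 0.674), from -1.01 and -0.12. Without both libraries that lay apart Bach2 (1.48, adjusted p = 0.0160) and Bcl6 (0.92, adjusted p = 0.0372) passed, among 255 genes in place of 0, and over the alternatives the adjusted p of each reached 0.971. For the other 6 genes the difference lay between -0.38 for Id2 and 0.44 for Tcf7.

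The libraries that lay apart at d9 bear on most of these genes. In 7 of the 9, Tcf7, Lef1, Tox, Bach2, Foxo1, Zeb2 and Bcl6, d9 replicate 1 was the lowest of the d9 libraries and d9 acetate replicate 2 the lowest of the d9 acetate libraries. Over all genes tested this held for 27.7%. Id2 was highest in both libraries, as were 25.6% of all genes. Id3 was highest in d9 acetate replicate 2 at 62.2 CPM and in the middle in d9 replicate 1 at 47.0 CPM. Whether this comes from the cells or from the preparation of these libraries was not tested.

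**Figure D5:**
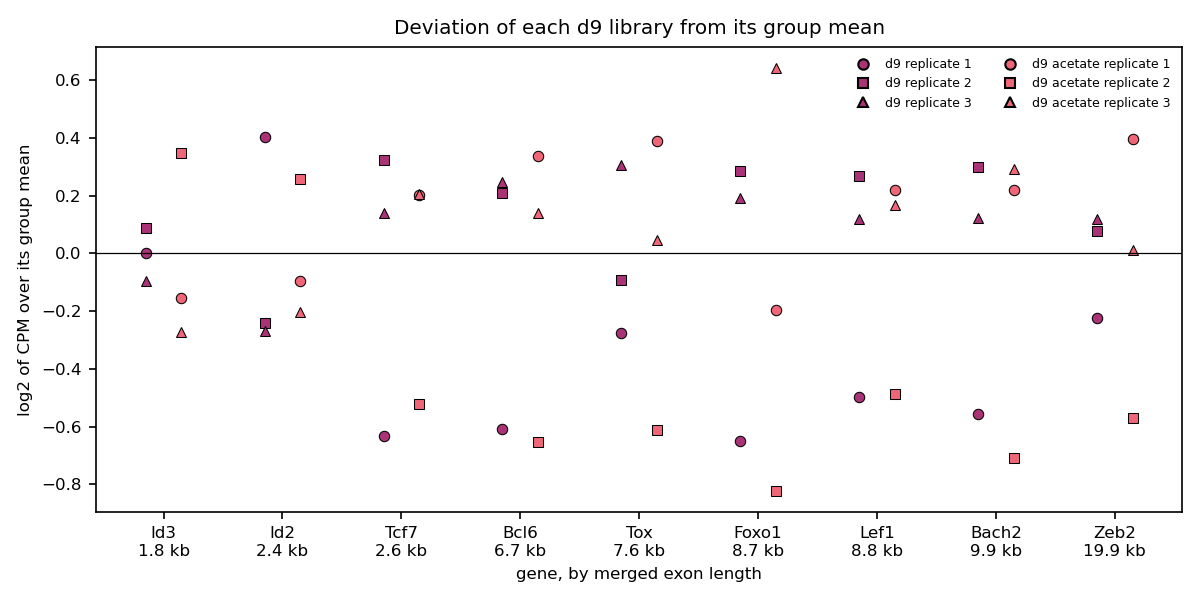
Log2 of the CPM in each d9 library over the mean CPM of its group (y axis) for the 9 tested genes, ordered by merged exon length on the x axis, with colours for the groups and marker shapes for the replicates. Replicate 1 of d9 and replicate 2 of d9 with acetate lie lowest in their group for 7 genes and highest for Id2.

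The wider lists place these factors beside other genes of CD8 T cell differentiation. Of 20 naive and memory genes 19 were tested, and 3 rose and 8 fell between days without acetate (median log2 fold change -0.33, against -0.01 over all genes), beside 15.9% of all genes higher and 21.2% lower. Slamf6, a surface marker of TCF1-positive cells, fell by 5.43 ± 0.31, from 34.0 ± 11.5 to 0.779 ± 0.279 CPM, while Tcf7 itself rose. Cxcr3, a chemokine receptor gene, fell by 3.82 ± 0.22 and Il7r, the receptor for interleukin 7, fell by 3.28 ± 0.30. Eomes, a T-box factor of memory and exhausted cells, rose by 2.37 ± 0.19. With acetate 7 rose and 6 fell (median 0.25, against -0.01), beside 18.5% of all genes higher and 23.1% lower. Slamf6 fell by 4.65 ± 0.28 and Cxcr3 by 2.00 ± 0.23, while Eomes rose by 3.13 ± 0.20 and Myb, which sustains stem-like cells, rose by 2.10 ± 0.22.

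Of 17 effector differentiation genes 15 were tested, and 6 rose and 2 fell between days without acetate (median 0.31, against -0.01), beside 15.9% of all genes higher and 21.2% lower. The granzyme genes Gzma and Gzmb rose by 4.30 ± 0.53 and 2.05 ± 0.20, and the AP-1 factor gene Batf by 1.55 ± 0.13. Tbx21, which encodes T-bet, fell by 1.38 ± 0.24 and moved in the same direction as Zeb2. With acetate 7 rose and 1 fell (median 0.52, against -0.01), beside 18.5% and 23.1%. Gzma, Gzmb and Batf rose by 3.68 ± 0.52, 1.58 ± 0.19 and 1.01 ± 0.13, and Prf1, the perforin gene, rose by 1.11 ± 0.23. Of 12 relatives of the factors 7 were tested. Id1 rose by 1.32 ± 0.47 without acetate at under 1 CPM, and with acetate 3 rose, namely Foxo3 by 1.10 ± 0.29, Tox4 by 0.30 ± 0.10 and Id1 by 1.23 ± 0.41. None fell in either state, with medians of 0.03 and 0.18 against -0.01 over all genes, and 15.9% and 18.5% of all genes were higher.

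For acetate at d5 the same lists held 6 genes that passed, among 201 over all genes (1.52%), a count that went to 0 without d5 replicate 2 or without either d5 acetate library. In the exhaustion list 3 of 16 rose and none fell (median -0.01, against 0.01), namely Cd244a by 1.37 ± 0.24, Cd38 by 1.96 ± 0.40 and Entpd1 by 1.09 ± 0.22. In the effector list 2 of 15 rose and none fell (median 0.26), namely Ifng by 1.26 ± 0.16 and Gzmb by 1.55 ± 0.20. In the naive and memory list Cxcr3 fell by 2.05 ± 0.24 and none rose (median -0.21). No gene of the other 4 lists passed at d5. The smallest p there were those of Prdm1 (0.80 ± 0.36), of Aes (-0.42 ± 0.11) and Tle6 (0.93 ± 0.49), of Tcf12 (0.22 ± 0.13) and Tcf3 (-0.24 ± 0.15), and of Foxo4 (-0.47 ± 0.22) and Foxo3 (-0.50 ± 0.31).

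No gene of the 7 lists passed for acetate at d9 or for the difference of acetate effects in edgeR. At d9 the smallest p were those of Gzmb (log2 difference 1.07 ± 0.16) and Ifng (0.72 ± 0.13) among effector genes and Myb (1.04 ± 0.18) and Cd27 (0.82 ± 0.14) among naive and memory genes. Nr4a1 (1.76 ± 0.51) and Nr4a2 (1.28 ± 0.39) led the exhaustion list, Prdm1 (0.64 ± 0.26) and Bcor (0.60 ± 0.29) the BCL6 list, and Tcf3 (-0.39 ± 0.13) and Tcf12 (0.24 ± 0.11) the E proteins. Tle3 (0.52 ± 0.26) and Axin2 (0.59 ± 0.31) led the TCF1 and LEF1 list and Id1 (0.58 ± 0.32) and Bcl6b (0.32 ± 0.24) the relatives.

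For the difference of acetate effects the smallest p were those of Cd27 (1.26 ± 0.22) and Cxcr3 (1.82 ± 0.33) among naive and memory genes, of Batf (-0.54 ± 0.17) and Irf4 (0.92 ± 0.30) among effector genes, and of Tigit (0.87 ± 0.27) and Cd244a (-1.01 ± 0.31) among exhaustion genes. Beside the factors themselves these were Tle6 (-1.53 ± 0.61) and Aes (0.32 ± 0.14), Bcorl1 (1.28 ± 0.67), Tcf3 (-0.14 ± 0.20) and Tcf12 (0.02 ± 0.17), and Zeb1 (0.73 ± 0.36) and Foxo3 (0.77 ± 0.39).

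The genes with patterns most like each factor were found by the root-mean-square difference of centred log2 CPM over the 10 libraries, among 9791 protein-coding genes. Lef1 was nearest to Urb1 (0.0734) and Zbtb34 (0.0824), against a median of 0.411 over all candidates, and Bcl6 to Pou2f2, a B cell octamer factor (0.0828), and Piezo1, a mechanosensitive channel (0.0871), against 0.558. Zeb2 was nearest to Itpr1, a calcium channel of the endoplasmic reticulum (0.133), and Ly75 (0.139), and Id2 to Tg (0.139) and Serpinb9, an inhibitor of granzyme B (0.151). Bach2 was nearest to Maml2, a coactivator of Notch (0.147), and Aff3 (0.175), and Id3 to Tex30 (0.153) and Cep57 (0.166). The medians over all candidates were 0.538 for Zeb2, 0.758 for Id2, 0.744 for Bach2 and 0.812 for Id3.

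Foxo1 was nearest to Ppard, a nuclear receptor (0.184), and Cmip (0.221), Tcf7 to Unc5a (0.246) and Zmat3 (0.270), and Tox to Ect2, a regulator of cytokinesis (0.260), and Kifap3 (0.275). Their medians over all candidates were 0.711, 0.963 and 1.39. The distance depends on how widely a gene itself varies and so does not rank the factors. Among the 9 factors the closest pair was Lef1 and Bcl6, at 0.285. These distances are descriptions over libraries that share days and treatments.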

How the data were processed

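Polyadenylated RNA of OT-I CD8 T cells was sequenced from stranded libraries, per the labels' protocols. Each sample has 1 deposited file of raw gene counts. The submitters' processing notes name STAR, featureCounts, DESeq2, deepTools and the GRCm38 build. No versions, annotation release or strand setting are given in these sources. Identifiers were matched to GENCODE M21 for 53360 of 53465 genes. The remaining 105 took up to 0.00689% of counts in a library.

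Counts were scaled by TMM, filtered with filterByExpr by group (13182 genes kept) and fitted as 4 group means with the robust edgeR 4.0.16 quasi-likelihood model in R 4.3.3, with 6 residual degrees of freedom and a biological coefficient of variation of 0.161. The 5 contrasts were adjusted by Benjamini-Hochberg over all genes at 0.05. The SE of a log2 fold change was taken from its F statistic. Principal components used log2 CPM with a prior count of 2. The script was tested on simulated data. Library totals of 16588023 to 24659226 counts limit the genes with few counts.

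The 10 factors were always named. Up to 4 genes past the threshold were named per related list (with none, the 2 genes with the smallest p), with the 2 nearest genes of each factor. Some genes that this rule names are not reported here. The factors and the lists were chosen with earlier results of these data known. Ratios within libraries and the removal of a trend with exon length were added after seeing the data. Both d9 libraries that lay apart were picked from the principal components of these same data, so leaving them out is not an independent check. Alternatives were DESeq2 1.42.0 size factors, no filter, the DESeq2 Wald test, limma-voom (limma 3.58.1), a replicate block, leaving out each library or both d9 libraries that lay apart, and the length trend (spline with 5 degrees of freedom). Whether replicate numbers pair the samples was checked. Of 13 pairs of libraries with the same number, 5 had deviations from the group mean correlated above 0.1 (r from -0.392 to 0.329). In groups of 2 libraries these deviations mirror each other, so the values are not separate checks and cannot settle the pairing. The main fit did not use the numbers as pairs.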

Additional observations from a re-analysis of the deposited data

How the results depend on the processing

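In all 17 alternatives Tox, Bach2, Id2 and Id3 passed between days without acetate, and Tcf7, Tox, Id2 and Id3 with acetate. Of 765 values of single factors under an alternative, 703 kept their direction and side of the threshold, 8 lost it, 24 newly passed and 30 changed sign, each of the last from a value that had not passed. Depth limits Tox2, with 10 counts, and Tox at d9.

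The number of factors past the threshold between days ran from 5 to 6 without and 4 to 7 with acetate over the alternatives. For acetate at d5 the count of 0 became 1 (Id2) with no filter, 3 with DESeq2, 3 without both libraries that lay apart and 2 (Id2 and Bach2) with the length trend removed. It ran from 0 to 2 when 1 library was left out, with 2 without d9 replicate 1 and 1 without d9 acetate replicate 2. Without both libraries that lay apart the count for acetate at d9 became 1 and that for the difference of acetate effects 2. The cause was not tested.

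Over all genes, acetate at d5 gave 201, and 578 with no filter, 786 with DESeq2, 2162 without both libraries that lay apart, 365 with the length trend removed and 0 to 498 without 1 library (498 without d9 replicate 1, 10 without d5 replicate 1 and 0 without any other d5 library). Acetate at d9 gave 4, and 197, 335, 213, 28 and 0 to 18 in the same order, with 21 of the 28 higher, against 4 of 4. The difference of acetate effects gave 0, and 99, 102, 255, 4 and 0 to 1. Without 1 library the count ran from 2803 to 5425 between days without acetate (main value 4895) and from 3108 to 6048 with acetate (5480), lowest without d5 replicate 2 and d5 acetate replicate 1. A d5 group left with 1 library was assumed to vary like the other groups.

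With the replicate number as a block, acetate at d5 gave 62 genes in place of 201. The counts of factors past the threshold were as without the block in all 5 comparisons. Over all genes the block gave 4248 and 4556 between days and 4 for acetate at d9. Of the 10 libraries, 4 correlated best with a library of their own number.

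Signs changed near 0. For acetate at d5 Zeb2 became 0.0134 with DESeq2 size factors, 0.0132 with DESeq2, 0.0208 with limma-voom and 0.15 with the length trend removed. For acetate at d9 Lef1 became -0.0438 with the length trend removed and Id3 -0.13 without both libraries that lay apart. Between days without acetate Foxo1 became 0.00022 with no filter, 0.17 without both libraries and 0.15 with the length trend removed. Between days with acetate Bach2 became 0.0625 without both libraries, and in the difference of acetate effects Zeb2 became -0.0011 with the length trend removed.

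When 1 library was left out, log2 values crossed 0 for 13 results. For acetate at d5 these were Tcf7 (-0.76 to 0.32) and Zeb2 (-0.24 to 0.28). At d9 they were Tcf7 (-0.11 to 0.34), Lef1 (-0.17 to 0.23), Bach2 (-0.0081 to 0.47), Id3 (-0.14 to 0.18) and Bcl6 (-0.34 to 0.13). Between days without acetate they were Lef1 (-0.0494 to 0.33), Foxo1 (-0.36 to 0.36) and Bcl6 (-0.38 to 0.0095), and with acetate Bach2 (-0.36 to 0.10). In the difference of acetate effects they were Tcf7 (-0.20 to 0.88) and Zeb2 (-0.0257 to 0.49).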
